A study of Mus musculus with 2 samples.

Results

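Chrm3, Clic5, Upp1 and Slc4a11 were 4 of the 56941 genes listed for both libraries, and they were the macrophage genes with some of the lowest levels in the SLAMF3 knockdown library relative to the control library. They were chosen by that very difference. Genes with at least 200 UMIs (unique molecular identifiers, each counting 1 captured RNA molecule) in macrophages were ranked by the log2 ratio of the knockdown to the control level, with 0.5 added to both levels (levels are CPM, the UMIs of a gene per 1000000 UMIs of the same cells), after leaving out mitochondrial, ribosomal protein, antigen receptor, sex-linked and unnamed genes and genes whose macrophage level was under 0.2 of that in their highest cell class. The 4 genes were among the 5 lowest of the 8069 genes ranked, and Nos2, the inducible nitric oxide synthase, was the other. On that scale Chrm3 stood at −2.91, Clic5 at −2.72, Nos2 at −2.66, Upp1 at −2.39 and Slc4a11 at −2.37. The genes next in order were Ch25h at −2.22, Tmem171 at −2.17, H2ac8 at −2.13, Cnn3 at −2.05 and Bcl2l14 at −2.04. Since the macrophage difference selected the genes, it is given here as a description, without any test.

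The cells came from liver metastatic lesions grown from MC38-LM3b, which was selected in mice from the MC38 murine colorectal cancer line for its spread to the liver and carries a GFP and luciferase reporter. MC38-LM3b-shScramble cells (Ctrl) or MC38-LM3b-shSLAMF3 cells (KD) were injected into the spleen of C57BL/6 mice aged 6 to 8 weeks, the lesions were taken 2 weeks later, and CD45+ cells were enriched with a positive selection kit and profiled by droplet-based single-cell RNA sequencing. Each group was 1 library that pooled 3 mice, so no replicate error exists, no p-value is given and every interval is a 95% interval of counting error only. A difference between mice, pools or library preparations and a difference due to the knockdown cannot be told apart. The hairpins act in the injected tumor cells and the mice themselves were not modified. They are shown because they are the only designed difference between the groups, as 5′ to 3′ target sequences, of which the study's methods name SLAMF3#2 for the injected cells while the labels give no number:

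Scramble: caacaagatgaagagcaccaa

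SLAMF3#2: caccctaatctgcactgtaaa

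After filtering, 9814 Ctrl and 10185 KD cells remained, with median depths of 5412 and 4989 UMIs. Macrophages, with monocytes included, made up 4101 and 2998 of them and held 26184501 and 23593556 UMIs. The cluster named monocyte among them held 365 Ctrl and 1138 KD cells, so different clusters made up the class in the 2 libraries. Its leading genes included Pf4 and Ltc4s beside Vcan and Chil3. At a finer clustering (resolution 1.0) the monocyte cluster held 330 Ctrl and 445 KD cells. A macrophage cluster led by Pf4 and Ltc4s held 19 and 644, so the 1138 KD cells are not a count of monocytes alone. All 10 of the macrophage markers were detected in both libraries, with summed levels of 10043 CPM in Ctrl and 11647 CPM in KD. In these cells the summed level of 7 granulocyte markers was 220 CPM in Ctrl and 1169 CPM in KD, while that of 8 T cell markers was 50.4 and 42.0 CPM. The libraries shared 27 cell barcodes. Ly9, which encodes SLAMF3, was read at 22.1 CPM in Ctrl and 19.9 CPM in KD macrophages (log2 ratio −0.15, interval −0.33 to 0.03). This does not check the knockdown, which was made in the tumor cells, and the small tumour- or fibroblast-like class held only 12 and 7 Ly9 UMIs.

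The 4 genes encode proteins of unrelated families. Chrm3 encodes the muscarinic acetylcholine receptor M3, which couples through Gq to phospholipase C and calcium release and is best known in smooth muscle and glands. Clic5 encodes a chloride intracellular channel protein that associates with ezrin, radixin and moesin at the actin cortex. Upp1 encodes uridine phosphorylase, which splits uridine into uracil and ribose phosphate and is inducible by inflammatory cytokines. Slc4a11 encodes a membrane transporter of the SLC4 family, related to bicarbonate carriers and known for its role in the corneal endothelium.

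In the GENCODE vM21 annotation of GRCm38, Chrm3 lies on the minus strand of chromosome 13 from 9875486 to 10360847. Clic5 lies on the plus strand of chromosome 17 from 44188584 to 44280172, Upp1 on the plus strand of chromosome 11 from 9118103 to 9136170, and Slc4a11 on the minus strand of chromosome 2 from 130684113 to 130697519. Chrm3 spans 485.4 kb and overlaps 4 genes on its own strand, so molecules from that region cannot be assigned to Chrm3 with the same certainty. No annotated gene overlaps the other 3. RefSeq promoter windows (GRCm38.p6) were matched for 3 of the 4 genes. Upp1 had 3 windows, of which only the window nearest its annotated start was searched, so its other promoters were not examined. The 250 bases before the start are printed because the genes were all lower in KD macrophages, although not in the same states. Capitals mark matches, on either strand, to AP-1 (TGANTCA) or to a loose NF-kB pattern (GGG, any 5 bases, then CC). GAS (TTCNNNGAA), ISRE (GAAA, any 2 bases, then GAAA) and the hypoxia core (ACGTG) were also searched. Adjacent capitals can join overlapping matches.

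Chrm3, chr13:10360804-10361053, minus strand: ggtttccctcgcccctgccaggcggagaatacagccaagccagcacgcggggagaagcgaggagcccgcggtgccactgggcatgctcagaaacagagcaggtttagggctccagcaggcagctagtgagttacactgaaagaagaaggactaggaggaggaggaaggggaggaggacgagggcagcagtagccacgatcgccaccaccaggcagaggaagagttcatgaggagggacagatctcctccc

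Clic5, chr17:44188322-44188571, plus strand: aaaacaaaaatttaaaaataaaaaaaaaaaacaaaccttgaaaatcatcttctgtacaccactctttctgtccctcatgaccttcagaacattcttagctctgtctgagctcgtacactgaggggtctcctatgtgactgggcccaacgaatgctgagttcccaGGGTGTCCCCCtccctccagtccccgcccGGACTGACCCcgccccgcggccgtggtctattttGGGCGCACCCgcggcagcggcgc

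Upp1, chr11:9117853-9118102, plus strand: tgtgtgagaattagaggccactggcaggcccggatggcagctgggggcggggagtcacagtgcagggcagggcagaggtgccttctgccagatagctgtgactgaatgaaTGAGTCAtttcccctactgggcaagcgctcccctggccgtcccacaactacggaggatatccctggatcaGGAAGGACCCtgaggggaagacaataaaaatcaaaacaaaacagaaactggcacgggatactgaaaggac

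The Upp1 window held 1 AP-1 match, from 140 to 134 bases before the start, and 1 NF-kB match. An AP-1 match occurred in 6.75% of all 32851 windows. The Clic5 window held 4 NF-kB matches, of which the first pair overlap, and 45.8% of all windows held at least 1. The Chrm3 window held no match to any of the 5 patterns, and the GAS, ISRE and hypoxia patterns, found in 7.02%, 2.98% and 16.6% of all windows, had no match in these 3 windows. A match is a run of letters and was not tested as a binding site.

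In macrophages, Chrm3 gave 559 UMIs in the Ctrl library and 57 in the KD library. These were 21.3 CPM (interval 19.6 to 23.2) and 2.42 CPM (1.83 to 3.13), a log2 ratio of −3.14 (interval −3.56 to −2.75). Of the 10020 genes with at least 200 macrophage UMIs, 1 had a lower ratio than Chrm3. Clic5 gave 403 and 45 UMIs, or 15.4 CPM (13.9 to 17.0) and 1.91 CPM (1.39 to 2.55), a log2 ratio of −3.01 (−3.49 to −2.57). Upp1 gave 4890 and 829 UMIs, or 187 CPM (182 to 192) and 35.1 CPM (32.8 to 37.6), a log2 ratio of −2.41 (−2.52 to −2.30). Slc4a11 gave 336 and 49 UMIs, or 12.8 CPM (11.5 to 14.3) and 2.08 CPM (1.54 to 2.75), a log2 ratio of −2.63 (−3.09 to −2.19). The levels were thus 8.84-fold, 8.07-fold, 5.32-fold and 6.18-fold lower in KD for Chrm3, Clic5, Upp1 and Slc4a11, and the intervals of the 2 libraries did not overlap for any of them. All 4 passed a log2 ratio of −1, which 1.83% of the 10020 genes did, and since this contrast chose the genes nothing is read from that count. A ratio of 1 or more was reached by 1.61%. The median over all 10020 genes was −0.03.

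**Figure D1:**
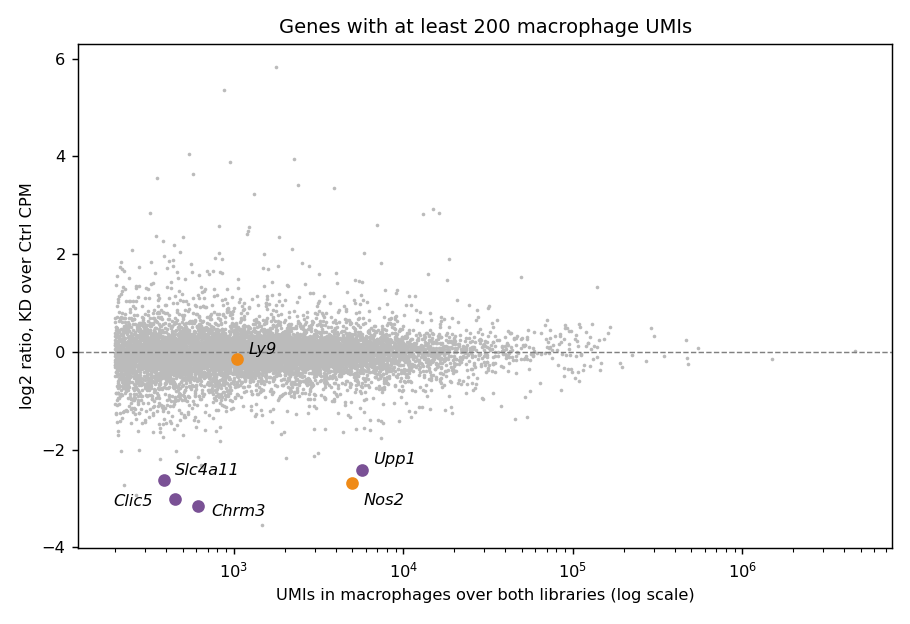
Log2 ratio of the KD to the Ctrl level in macrophages (vertical axis) against the UMIs of the gene over both libraries (horizontal axis, log scale), 1 point per gene with at least 200 UMIs. Chrm3, Clic5, Upp1 and Slc4a11 (purple) and Nos2 (orange) lie between −3.14 and −2.41, and Ly9 (orange) lies at −0.15.

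The difference was seen in the share of cells with a UMI as well as in the level. With each cell thinned to 1500 UMIs, 20.4% of 3810 Ctrl macrophages and 4.26% of 2884 KD macrophages held a Upp1 UMI (Clopper-Pearson intervals 19.2 to 21.8% and 3.56 to 5.07%). The thinned shares were 1.76% and 0.312% for Chrm3, 2.57% and 0.347% for Clic5, and 1.81% and 0.416% for Slc4a11. Thinning left out 291 Ctrl and 114 KD macrophages, whose classes had median depths of 5568 and 7443 UMIs. Without thinning the shares in Ctrl and KD were 42.1% and 14.9% for Upp1, 5.80% and 1.501% for Chrm3, 7.19% and 1.23% for Clic5, and 6.90% and 1.501% for Slc4a11. T cells, which should lack these genes or hold little of them, gave thinned shares of 1.15% and 0.574% for Upp1, 0.0990% and 0.128% for Chrm3 and for Clic5, and 0.165% and 0% for Slc4a11, where 0 of 1567 cells allows a share of up to 0.191% at the floor of 3 cells and 0.235% by the Clopper-Pearson limit, with median depths of 6605 and 5594 UMIs. The Ctrl macrophage shares were therefore above the T cell shares, while the KD shares of Chrm3 and Clic5 lay within the counting interval of KD T cells (0.0155 to 0.460%), so that these KD macrophage shares could not be told from background at 1500 UMIs per cell. The KD macrophage interval of Slc4a11 (0.215 to 0.726%) also overlapped that of KD T cells. In 797 KD B cells the shares were 0.125% (0.00318 to 0.697%) for Chrm3 and for Slc4a11. They were 0% (up to 0.462%) for Clic5 and Upp1. At 3000 UMIs the KD macrophage share of Chrm3 was 0.747% (0.457 to 1.15%) against 0.142% (0.0171 to 0.510%) in KD T cells. That of Clic5 was 0.673% (0.399 to 1.06%) against 0.212% (0.0438 to 0.619%), and the intervals overlap for both genes. That of Slc4a11 was 0.486% (0.259 to 0.829%) against 0% (up to 0.261%), and these intervals overlap narrowly. KD B cells at 3000 UMIs gave 0.420% (0.0106 to 2.32%) for Chrm3 and for Slc4a11, and 0% (up to 1.54%) for Clic5. Unthinned, KD T cells gave 0.557% (0.255 to 1.05%) for Chrm3 and 0.495% (0.214 to 0.973%) for Clic5. The KD macrophage shares were 1.501% (1.10 to 2.003%) and 1.23% (0.870 to 1.70%), so the intervals still overlap for Clic5. These unthinned shares were read at unlike median depths, 7443 UMIs in KD macrophages and 5594 in KD T cells.

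Chrm3 was carried by few cells at high counts. Of the 238 Ctrl macrophages with a Chrm3 UMI, 118 held 2 or more, the highest held 40 and the next 15, and the 10 richest cells held 20.9% of the UMIs. In KD, 45 cells held a Chrm3 UMI and the highest count was 5. Upp1 was spread over 1727 Ctrl cells, the 10 richest of which held 3.93% of its UMIs. Slc4a11 was nearly a gene of single molecules, with 241 Ctrl cells at 1 UMI and 42 at 2 or more. Clic5 was similar, with 224 and 71 cells.

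Re-clustering the macrophages without the 4 genes among the variable genes gave 11 states, and 7 of these held at least 50 cells of each library. The state with most Ctrl cells was inflammatory-like (Ly6i and Inhba lead its genes), with 1198 Ctrl and 252 KD cells. The state with most KD cells was C1q-high-like (Mmp12 and Ccl8 lead), with 725 and 1066 cells. The others were a cycling-like state (477 and 112 cells), a second C1q-high-like state led by Ifitm1 and Selenom (351 and 96), an unnamed state led by Cadm1 and Psd3 (842 and 316 cells) with a low median depth of 2354 UMIs and 3.90% mitochondrial UMIs, an unnamed state led by Lcn2 and Chil3 that expressed 5 of the monocyte-like markers (394 and 469), and an unnamed state led by the lymphocyte and granulocyte genes Gzma and Retnlg (53 and 69). Upp1 itself was among the 10 leading genes of the Ifitm1 state although it was left out of the clustering genes.

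The 4 genes did not follow the same states in the Ctrl library. Upp1 was highest in the inflammatory-like state, at 309 CPM (296 to 321), and in the Ifitm1 state, at 299.9 CPM (277 to 324), which overlapped, followed by 211 CPM in the Gzma state, 140 CPM in the Mmp12 state, 112 CPM in cycling-like cells, 95.7 CPM in the Cadm1 state and 48.9 CPM in the Lcn2 state. Slc4a11 was highest in the inflammatory-like state at 19.1 CPM (16.1 to 22.5), with the Cadm1 state at 18.7 CPM (13.5 to 25.2) and the Ifitm1 state at 14.7 CPM (10.1 to 20.7) within its counting error. Clic5 reached 23.9 CPM (18.0 to 31.1) in the Cadm1 state and 23.3 CPM (20.01 to 27.0) in the inflammatory-like state, against 11.0 CPM in the Mmp12 state and 5.97 CPM in the Ifitm1 state. Chrm3 had another order. It stood at 48.0 CPM (42.0 to 54.6) in cycling-like cells, 19.3% of which held a UMI unthinned, at 46.5 CPM (38.1 to 56.2) in the Cadm1 state and at 27.2 CPM (23.3 to 31.6) in the Mmp12 state, and at only 2.52 CPM (1.52 to 3.93) in the inflammatory-like state. Of the Ctrl macrophage UMIs of Chrm3, 41.0% were in cycling-like cells and 3.40% in the inflammatory-like state, whereas the latter held 47.6% of those of Upp1, 43.7% of Clic5 and 42.9% of Slc4a11. All 4 genes were at or near their lowest in the Lcn2 state, where Chrm3 gave 3 Ctrl UMIs and Clic5 and Slc4a11 gave 1 each.

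**Figure D2:**
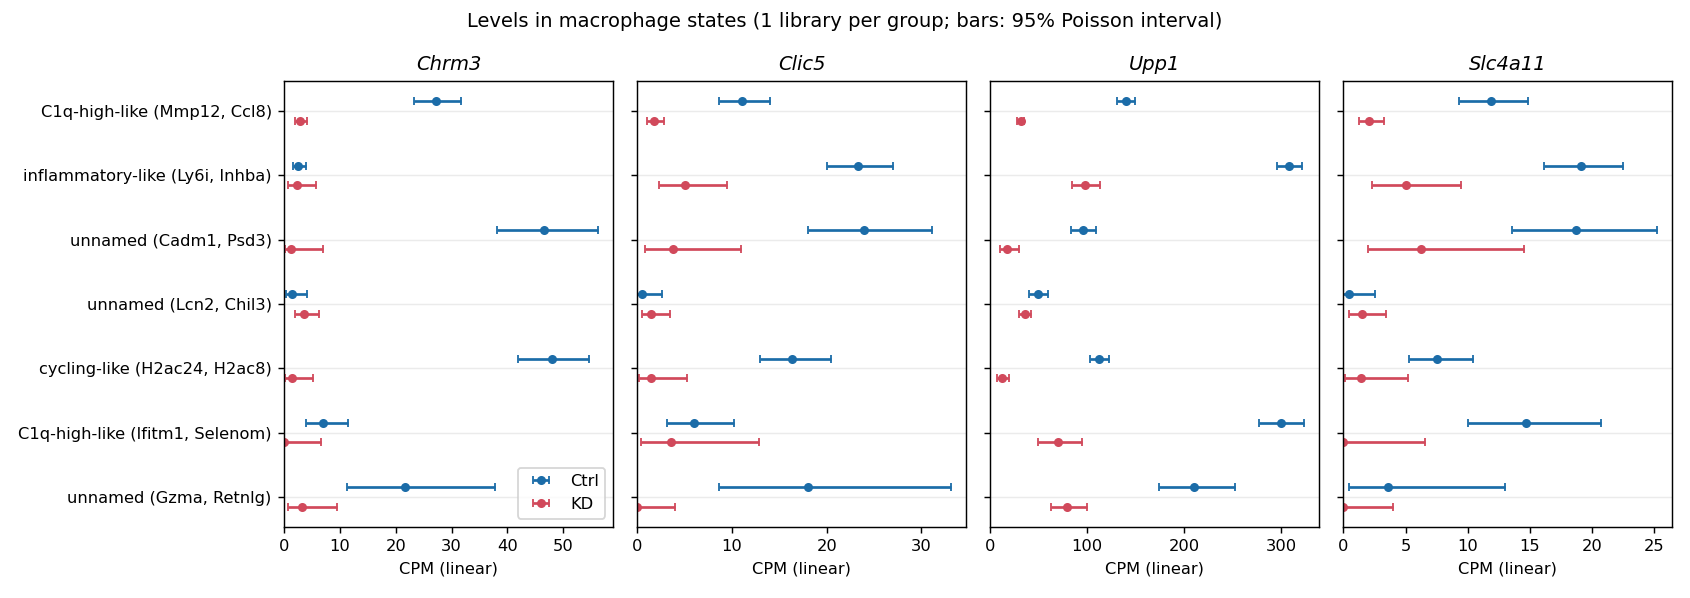
Level of each gene (CPM, linear axis from 0) in the 7 macrophage states with at least 50 cells of each library, Ctrl in blue and KD in red, as points with 95% Poisson intervals as lines. Upp1 in the inflammatory-like state is at 309 CPM in Ctrl and 97.8 CPM in KD, and Chrm3 in cycling-like cells at 48.0 and 1.44 CPM.

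The library difference was also present within most states. These states are parts of the macrophage sums by which the genes were chosen. Nothing is therefore read from how many of the 4 passed −1 within any state. In the Mmp12 state, Chrm3 gave 170 Ctrl and 27 KD UMIs (log2 ratio −3.27, interval −3.91 to −2.67), Clic5 69 and 17 (−2.63, −3.49 to −1.85), Upp1 875 and 298 (−2.17, −2.36 to −1.97) and Slc4a11 74 and 20 (−2.50, −3.29 to −1.77). All 4 were past a log2 ratio of −1 in this state, as were 1.57% of the genes tested there. The state was not alike in the libraries, since at resolution 1.0 C1q-high-like cells included a state led by Ccl8 and Vcam1 with 390 Ctrl and 86 KD cells and one led by Mmp12 and Ear2 with 36 and 423. Within the former, Chrm3 gave 100 and 6 UMIs (−2.01, −3.49 to −0.84), Upp1 497 and 30 (−2.004, −2.59 to −1.47), Clic5 47 and 1, and Slc4a11 37 and 1. In the inflammatory-like state Upp1 was at 309 CPM in Ctrl and 97.8 CPM in KD (−1.66, −1.89 to −1.44), Clic5 at 23.3 and 5.003 CPM (−2.22) and Slc4a11 at 19.1 and 5.003 CPM (−1.93), where 2.65% of genes were past −1. Chrm3 was low there in both libraries, with 19 Ctrl and 4 KD UMIs (−0.18, −2.19 to 1.41), so that a difference was not detectable at this depth.

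In cycling-like cells, Chrm3 gave 229 Ctrl UMIs and 2 KD UMIs (log2 ratio −5.06, interval −8.11 to −3.19), in 92 and 2 cells. Upp1 gave 536 and 17 UMIs there (−3.20, −3.99 to −2.50), Clic5 78 and 2, and Slc4a11 36 and 2, beside 2.60% of genes past −1. In the Cadm1 state Chrm3 gave 107 and 1 UMIs (−5.22, −10.54 to −2.72), Clic5 55 and 3 (−2.68), Upp1 220 and 14 (−2.46) and Slc4a11 43 and 5 (−1.59, −3.28 to −0.25), beside 3.27% of genes past −1. In the Ifitm1 state Upp1 was at 299.9 and 69.3 CPM (−2.11, −2.62 to −1.65), beside 3.79%, and Slc4a11 gave 32 Ctrl UMIs and 0 in KD, where a floor of 3 UMIs sets the log2 ratio at −1.46 or lower. Chrm3 there gave 15 and 0 UMIs, and Clic5 13 and 2 (interval −3.94 to 1.40). In the Gzma state, which also held summed T cell markers at 669 and 695 CPM, Upp1 was at 211 and 79.6 CPM (−1.40), beside 3.85%.

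The Lcn2 state was the exception. Upp1 there was at 48.9 CPM in Ctrl and 35.3 CPM in KD (log2 ratio −0.47, interval −0.86 to −0.08), short of −1, which 2.44% of genes passed. Chrm3 gave 3 and 12 UMIs, Clic5 1 and 5, and Slc4a11 1 and 5, all nominally higher in KD with intervals that held 0. A state led by Ltc4s and Cxcl3 held 19 Ctrl and 527 KD cells, and there Upp1 gave 12 and 73 UMIs (−2.22, −3.11 to −1.21) and Chrm3 0 and 8. The summed granulocyte markers in the Lcn2 state were at 1059 CPM in Ctrl and 4478 CPM in KD, and their part in these values was not tested.

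The ratio remained below 0 for all 4 genes once state make-up was held fixed, while its size relative to the pooled ratio depended on the states and weights. When the levels of the 7 states were averaged with the Ctrl library's UMIs per state as fixed weights, Upp1 was at 188 CPM in Ctrl and 50.6 CPM in KD, a log2 ratio of −1.89 (approximate interval −2.04 to −1.75) against −2.41 pooled. Clic5 moved from −3.01 to −2.42 (−3.02 to −1.81) and Slc4a11 from −2.63 to −2.14 (−2.74 to −1.55). Chrm3 was at −3.37 (−3.96 to −2.78) against −3.14. The pooled ratios also include the states left out of the 7, so the 2 sets of ratios do not cover the same cells. Without states over 90% from 1 library the pooled ratios were −3.04 for Chrm3, −2.83 for Clic5, −2.23 for Upp1 and −2.49 for Slc4a11. With the KD library's weights the ratios were −3.02 for Chrm3, −2.47 for Clic5, −1.85 for Upp1 and −2.18 for Slc4a11, all nearer to 0 than the pooled ratios. After integration of the libraries by reciprocal PCA (RPCA) before the states were formed, the standardised ratios of Clic5 (−3.13) and Upp1 (−2.60) were further from 0 than the pooled ones, as was that of Chrm3 (−3.22), and that of Slc4a11 (−2.50) was nearer. The direction held in each of these settings, but whether state make-up adds to the pooled ratio was not settled by them.

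**Figure D3:**
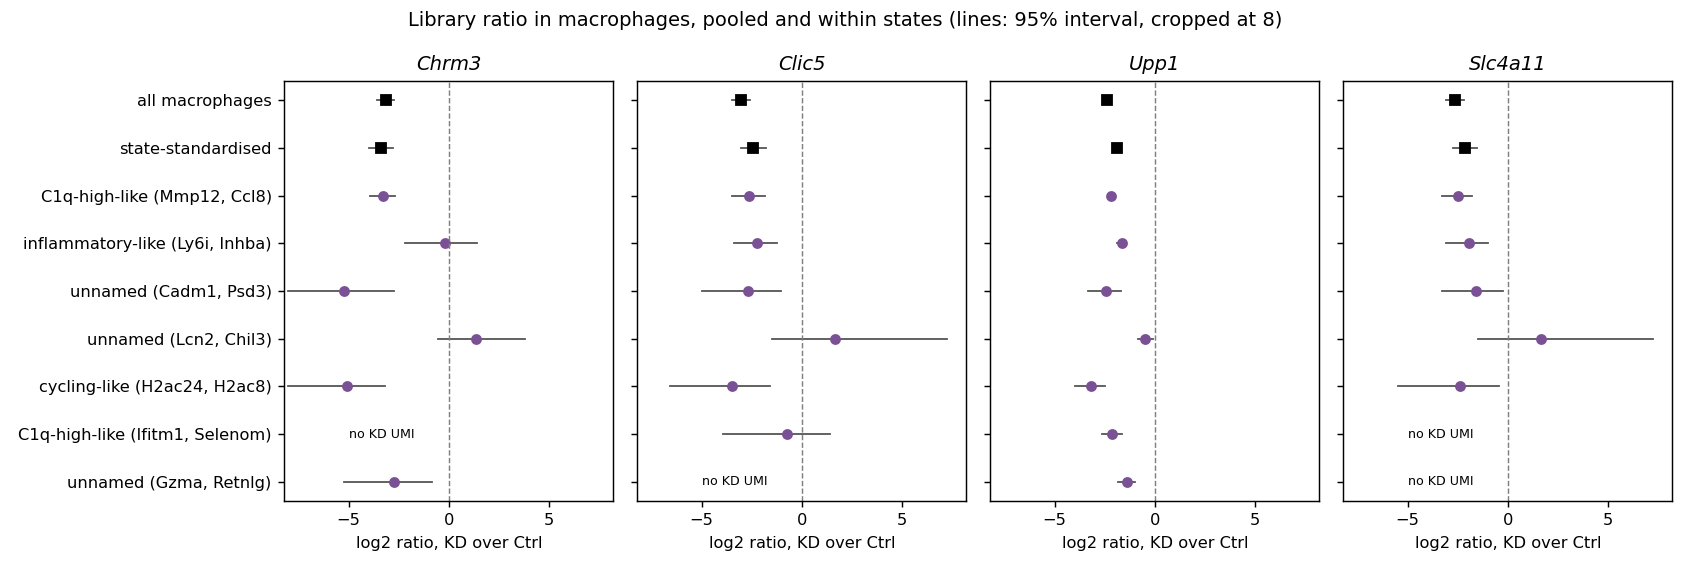
Log2 ratio of KD to Ctrl for each gene over all macrophages, standardised to the Ctrl state make-up (black squares) and within each of the 7 states (purple circles), with 95% intervals as lines that end at a size of 8 and a dashed line at 0, and with states that held no KD UMI marked as such. Every Upp1 ratio is below 0, from −3.20 in cycling-like cells to −0.47 in the Lcn2 state, and the Lcn2 state is the only one with ratios above 0 for the other 3 genes.

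Other cell classes hold the same genes, and their ratios were not used to choose them, although they come from the same libraries. Dendritic cells (cDC, 379 Ctrl and 582 KD cells) held lower levels of the genes in KD, as macrophages did. Chrm3 gave 75 and 32 UMIs there, or 27.4 CPM (21.5 to 34.3) and 6.09 CPM (4.17 to 8.60), a log2 ratio of −2.17 (−2.81 to −1.55). These UMIs lay in only 24 Ctrl and 16 KD cells. The thinned Chrm3 shares, 1.97% (0.796 to 4.02%) and 1.05% (0.385 to 2.27%), had overlapping intervals. Upp1 was at 99.6 CPM (88.1 to 112) and 18.5 CPM (14.97 to 22.5), a log2 ratio of −2.43 (−2.78 to −2.09). Its thinned shares were 9.58% (6.72 to 13.1%) and 1.92% (0.962 to 3.41%). Both of the members with at least 50 UMIs in dendritic cells were past −1, against 1.09% of all genes tested there. Slc4a11 gave 21 and 12 UMIs (−1.75, −2.90 to −0.66) and Clic5 12 and 3 (−2.94, −5.40 to −1.05). The summed level of the 10 macrophage markers in this class was 627 CPM in Ctrl and 669 CPM in KD.

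Granulocytes separated the genes. Clic5 gave 92 UMIs in 61 of 805 Ctrl granulocytes and 10 UMIs in 9 of 2308 KD granulocytes. These were 45.8 CPM (36.9 to 56.2) and 1.28 CPM (0.612 to 2.35), a level 35.9-fold lower in KD (log2 ratio −5.17, −6.27 to −4.22). Upp1 had its highest level of any class here, at 834 CPM (795 to 875) in Ctrl and 397 CPM (384 to 412) in KD, a log2 ratio of −1.07 (−1.16 to −0.98). Chrm3 did not differ beyond counting error, with 21 and 88 UMIs, or 10.5 CPM (6.47 to 16.0) and 11.2 CPM (9.01 to 13.8), a log2 ratio of 0.10 (−0.60 to 0.87). Slc4a11 was nearly missing, with 2 and 5 UMIs. Of the 3 members with at least 50 UMIs, 2 were past −1, against 6.57% of all genes tested in granulocytes. The class was made of different clusters in the 2 libraries, since 1 granulocyte cluster held 44 Ctrl and 584 KD cells. Within the largest granulocyte cluster (735 and 1637 cells) Clic5 was at 52.8 and 1.89 CPM (−4.81), Upp1 at 907 and 437 CPM (−1.05) and Chrm3 at 12.6 and 15.8 CPM (0.33, −0.41 to 1.13). At resolution 1.0 granulocytes formed one cluster of 198 Ctrl and 1340 KD cells and another of 537 and 297, so cells of different kinds may be compared within the largest cluster too, and their part in these ratios was not tested. In the cluster of 44 Ctrl and 584 KD cells Upp1 was at 538 and 371 CPM (−0.53, −0.80 to −0.26), short of −1. The summed macrophage markers in granulocytes were at 666 and 804 CPM.

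In the tumour- or fibroblast-like class (161 Ctrl and 96 KD cells), which holds CD45-negative cells carried through the enrichment, Clic5 was as high in KD as in Ctrl. It gave 42 and 30 UMIs, or 20.7 CPM (14.9 to 28.0) and 23.0 CPM (15.5 to 32.8), a log2 ratio of 0.15 (−0.58 to 0.86). Upp1 was at 226 and 183 CPM (−0.31, −0.54 to −0.08) in these cells, and at 67.9 and 50.5 CPM (−0.43, −0.81 to −0.03) in endothelial cells. None of the 2 members with at least 50 UMIs in the tumour- or fibroblast-like class passed −1, which 5.65% of genes did. Chrm3 and Slc4a11, under that minimum, each gave 12 Ctrl and 1 KD UMIs in this class (−2.95, −8.37 to −0.19).

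Kupffer cells, the resident macrophages of the liver, were a separate class of 48 Ctrl and 83 KD cells, in which Upp1 gave 6 and 5 UMIs, Chrm3 2 and 1, and Clic5 and Slc4a11 0.

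T cells held little of any of the genes. Upp1 was at 7.01 CPM in Ctrl and 6.78 CPM in KD T cells, and Chrm3 at 0.558 and 0.982 CPM. In Ctrl, the T cell level was 2.61% of the macrophage level for Chrm3, 3.75% for Upp1, 7.45% for Slc4a11 and 14.2% for Clic5. The KD macrophage levels beside the KD T cell levels were 35.1 CPM for Upp1, 2.42 CPM for Chrm3, 1.91 CPM for Clic5 and 2.08 CPM for Slc4a11. Clic5 was at 2.19 and 0.893 CPM (log2 ratio −1.29, −2.43 to −0.31), past −1 as were 1.59% of the genes tested in T cells. Slc4a11 gave 24 UMIs in Ctrl T cells and 0 in KD T cells, a log2 ratio of −1.84 or lower at a floor of 3 UMIs. Natural killer (NK) cells and B cells held under 50 UMIs of each gene. In NK cells Upp1 gave 22 Ctrl and 4 KD UMIs (log2 ratio −3.33, −5.33 to −1.77), and Clic5 19 and 7 (−2.31). In B cells Upp1 gave 11 and 4 UMIs (−3.08, −5.18 to −1.32). Going the other way, Chrm3 gave 3 and 12 UMIs in NK cells (1.13, −0.76 to 3.59). In B cells Chrm3 gave 0 and 2 UMIs, Clic5 0 and 1, and Slc4a11 1 and 4. How much of these low values is RNA released from other cells was not tested.

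**Figure D4:**
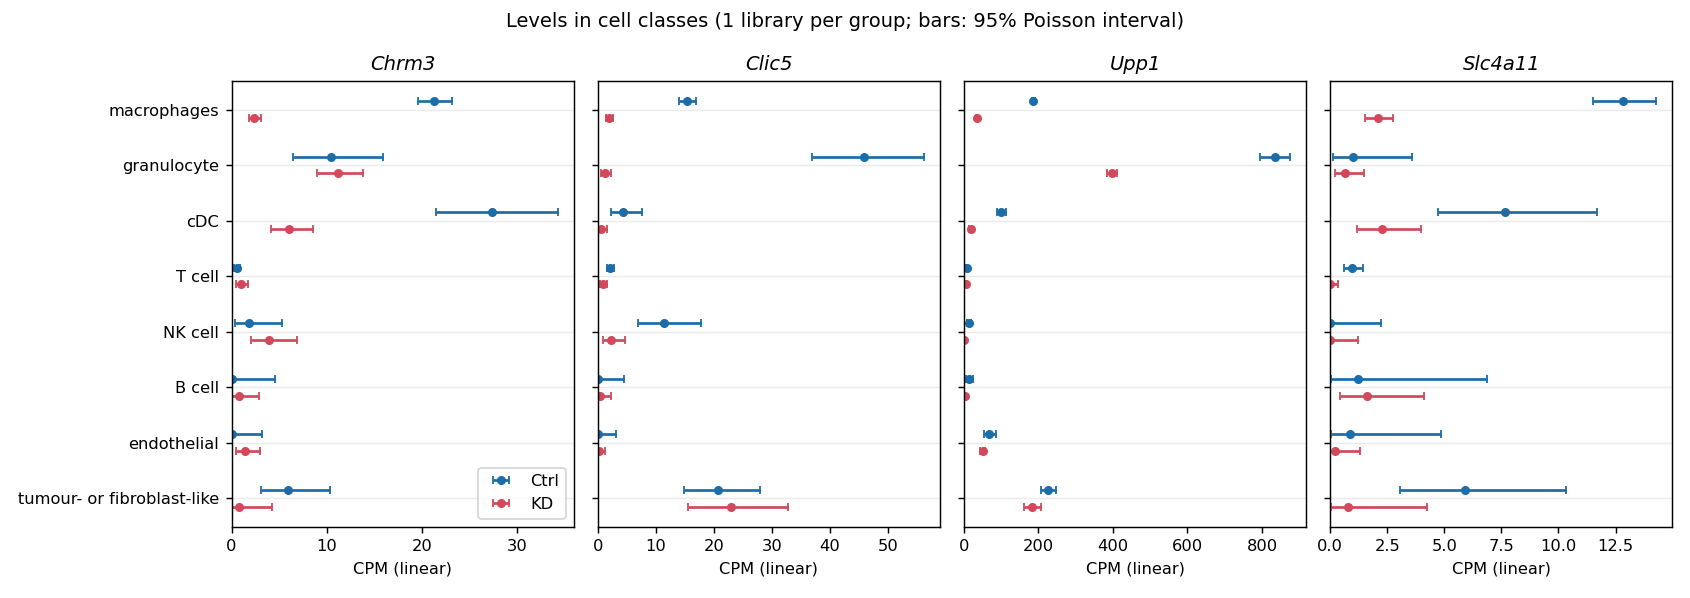
Level of each gene (CPM, linear axis from 0) in 8 cell classes, Ctrl in blue and KD in red, as points with 95% Poisson intervals as lines. Granulocytes hold the highest Upp1 levels (834 and 397 CPM), Chrm3 is highest in Ctrl dendritic cells (27.4 CPM) and macrophages (21.3 CPM), and Clic5 in the tumour- or fibroblast-like class is at 20.7 and 23.0 CPM.

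The distribution of the UMIs over classes differed accordingly. In the Ctrl library, macrophages held 81.1% of the 689 Chrm3 UMIs, 63.1% of the 639 Clic5 UMIs, 62.4% of the 7840 Upp1 UMIs and 83.2% of the 404 Slc4a11 UMIs. In the KD library they held 26.8% of 213 Chrm3 UMIs and 17.6% of 4707 Upp1 UMIs, and granulocytes held 41.3% and 66.1%. Slc4a11 stayed mostly in macrophages, with 67.1% of its 73 KD UMIs.

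The partners of the 4 proteins were mostly near the median of all genes in macrophages. Of 13 genes of muscarinic receptors and acetylcholine handling, Chrm3 alone had at least 200 UMIs, Chrm1 gave 1 and 2 UMIs, and Chrm2, Chrm4 and Chrm5 gave 0 in both libraries. Of the 14 measured genes of Gq signaling none passed a log2 ratio of 1 in size, and their median was 0.01. The phospholipase Plcb1 stood at 0.29, the inositol trisphosphate receptors Itpr1 at −0.39 and Itpr3 at −0.94, and the regulator Rgs1 at −0.44. In the Clic5 group none of the other 6 measured genes passed. The family members Clic1 and Clic4 were at −0.07 and −0.23, and ezrin (Ezr) and moesin (Msn) at 0.41 and 0.22.

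Among 10 other measured genes of pyrimidine salvage and uridine transport, 1 passed −1, the thymidine kinase Tk1 (−1.24, with 489 and 187 UMIs), which is best known from cells in S phase. Upp2, the second uridine phosphorylase, was at −0.08 with 158 and 135 UMIs. The concentrative transporter Slc28a2 was at −0.49, and the uridine kinases Uck1 and Uck2 at −0.36 and 0.36. None of 7 genes of pyrimidine breakdown and synthesis passed, from −0.51 for Dpys to 0.41 for Ctps2, with Nt5c3 at −0.35 and Umps at 0.33. Of 3 other measured SLC4 transporters, Slc4a8 was at −1.01 (365 and 163 UMIs), Slc4a2 at −0.08 and Slc4a7 at 0.07. None of 5 genes of pH regulation passed, with carbonic anhydrase Car13 at −0.45, the lactate carriers Slc16a3 and Slc16a1 at −0.37 each, and the proton channel Hvcn1 at −0.10. Car2, a carbonic anhydrase under the minimum of 200 UMIs and named after its values were seen, gave 62 and 12 UMIs (−2.22, −3.25 to −1.31).

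Genes of macrophage activation stood further from the median. Of 24 genes of the response to interferon-gamma and endotoxin, 11 were past −1 and 2 past 1, with a median of −0.93, where 1.83% and 1.61% of all genes were. Nos2 was at −2.68, the feedback inhibitor Socs1 at −1.57, the guanylate-binding protein Gbp5 at −1.46 and the cytokine Il6 at 1.42. Nos2, Cxcl9 and Cxcl10 are markers by which the inflammatory-like state (1198 Ctrl and 252 KD cells) was named, and Gbp2 and Acod1 are among its leading genes. Its markers Il1a, Il1b and Ptgs2 were at −0.05, −0.37 and −0.63. The part of state make-up in the ratios of this list was not tested. Of 9 measured genes of alternative activation and resident macrophages, 7 were past 1 and none past −1, with a median of 1.64, where 1.61% of all genes were past 1. These included the chemokines Ccl24 at 3.35 and Pf4 at 2.61, the leukotriene synthase Ltc4s at 3.24 and the chitinase-like Chil3 at 2.85. Pf4, Ltc4s and Ccl24 are markers by which the state of 19 Ctrl and 527 KD cells was named, and Chil3 leads the Lcn2 state (394 and 469 cells). The part of state make-up in these ratios was likewise not tested. None of 10 hypoxia and glycolysis genes passed in either direction (Vegfa −0.62, Ndrg1 −0.62, Slc2a1 −0.59, Hilpda 0.59), and none of 11 NF-kB targets (Traf1 −0.71, Ccl5 −0.68, Icam1 −0.35, Nfkb2 −0.35).

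**Figure D5:**
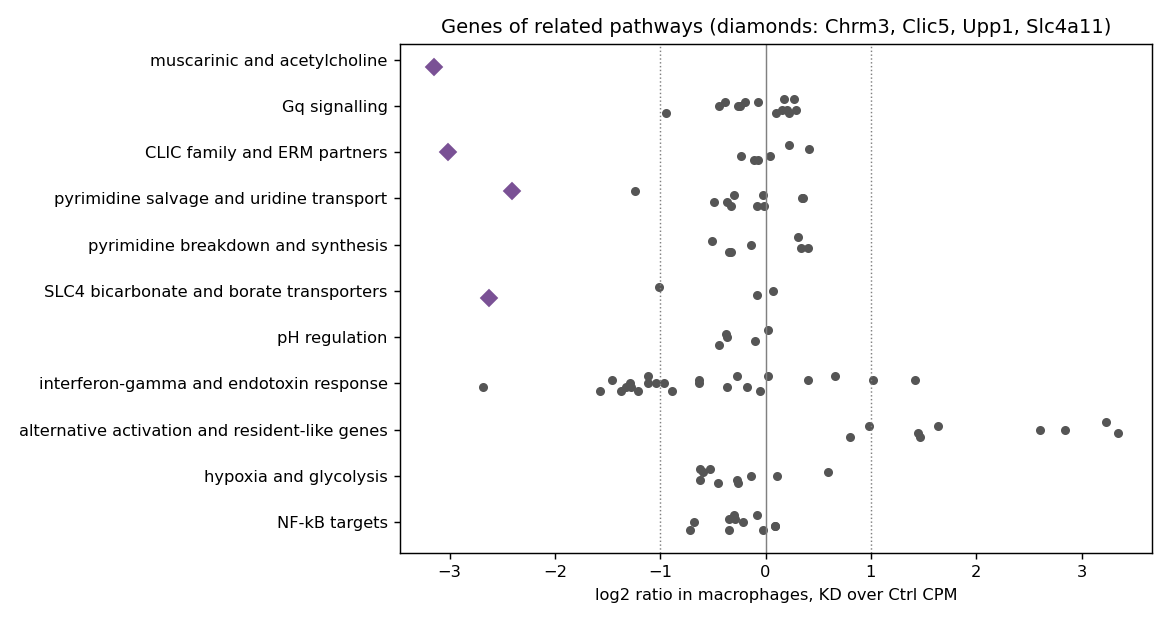
Log2 ratio of KD to Ctrl in macrophages for every gene with at least 200 UMIs in 11 gene lists, 1 row per list, with dotted lines at −1 and 1. Chrm3, Clic5, Upp1 and Slc4a11 (diamonds) were chosen by this ratio and lie between −3.14 and −2.41, while 11 interferon-gamma and endotoxin genes are past −1 and 7 alternative activation genes are past 1.

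Likeness of pattern was measured as Pearson r of log2(CPM + 1) over 33 sums of cells, each a class or macrophage state in 1 library, which share their libraries and are not independent. The sums include the macrophage states of both libraries, so r carries the difference by which the genes were chosen. For Upp1 the closest genes were Isg15 (r = 0.80), Gbp2 (0.79), Rnd1 (0.79), Fam114a1 (0.76) and Irgm1 (0.76), of which Isg15, Gbp2 and Irgm1 are interferon-inducible. For Clic5 they were the glucose transporter Slc2a1 (0.75), Tgtp1 (0.74), Plekhn1 (0.74), Sfmbt2 (0.71) and Pgm1 (0.71). For Slc4a11 they were Inpp5j (0.77), Plekhn1 (0.76), Shc4 (0.74), Prm1 (0.73) and Tnfsf15 (0.73). For Chrm3 they were the unnamed genes Gm56680 (0.74), 4933406J09Rik (0.70) and AW011738 (0.69), together with Mmp25 (0.71) and Camkk1 (0.71).

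Single Ctrl macrophages were read the same way after thinning to 1500 UMIs. A Nos2 UMI was found in 25.5% (17.2 to 35.3%) of the 98 cells with a Clic5 UMI and in 14.0% (12.9 to 15.2%) of those without. It was found in 20.9% (18.1 to 24.0%) of the 779 cells with a Upp1 UMI and in 12.6% (11.4 to 13.8%) of those without. Among the 67 cells with a Chrm3 UMI it was found in 4.48% (0.933 to 12.5%), against 14.5% (13.4 to 15.6%) of those without. A Upp1 UMI was found in 31.6% (22.6 to 41.8%) of cells with a Clic5 UMI and in 20.2% (18.9 to 21.5%) of those without. For the other 2 members the order was the opposite, with intervals that overlap: Upp1 was found in 17.9% (9.61 to 29.2%) of cells with a Chrm3 UMI against 20.5% (19.2 to 21.8%), and in 15.9% (8.24 to 26.7%) of the 69 cells with a Slc4a11 UMI against 20.5% (19.2 to 21.9%).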

How the data were processed

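The measurements were UMI counts per gene and cell of 2 libraries of mouse CD45+ cells, 1 per group, prepared with 10x Genomics 3′ v3.1 chemistry. Per the labels, the authors made the deposited counts with Cell Ranger 7.1.0 on GRCm39; whether intronic reads were counted is not given in the sources used here. The total was 67207234 UMIs in 10416 Ctrl cells and 64444715 in 10943 KD cells. Cells were dropped below 200 genes, above 10% mitochondrial UMIs, above 30000 UMIs or above 6000 genes. Seurat 5.3.0 (R 4.3.3) clustered them on 2000 variable genes without the 4 members, 20 principal components and resolution 0.5, first all cells and then macrophages. Clusters were named from at least 3 fixed markers, and otherwise left unnamed. Macrophage states were also left unnamed where markers of another cell type outnumbered their own among the leading genes, as in the Lcn2 state. Doublets were limited by the UMI and gene maxima alone. Counts were summed by library and class and scaled to CPM with exact Poisson intervals, ratios have exact conditional binomial intervals, shares have Clopper-Pearson intervals, and a 0 allows 3 counts (Python 3.11.15, scipy 1.17.1). The interval of a standardised ratio is a delta-method approximation. Genes needed 200 UMIs in macrophages or 50 in other classes and states to be counted against a log2 ratio of 1. Named genes were the members, Ly9, Nos2 and the 5 genes next in rank, the 5 most alike to each member, and up to 4 of largest ratio and the family members from each of 11 lists. Members and lists were chosen with earlier results of these data known. Ratios were checked on simulated Poisson counts, so that check does not cover an uneven spread of UMIs over cells, as seen for Chrm3.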

Additional observations from a re-analysis of the deposited data

Results flagged for a closer look

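Both results below were picked out because the KD level was higher than the Ctrl level in a cell class while the same gene was lower in KD macrophages, with intervals that do not overlap those of macrophages and at least 50 UMIs, a criterion set after seeing the data. With 1 library per group, the difference between classes was not tested. Chrm3 in granulocytes had a log2 ratio of 0.10 (interval −0.60 to 0.87, from 21 Ctrl and 88 KD UMIs). Clic5 in the tumour- or fibroblast-like class had a log2 ratio of 0.15 (interval −0.58 to 0.86, from 42 and 30 UMIs). Both intervals hold 0, so neither is a measured increase.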

How the results depend on the processing

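No paired analysis was possible because each group is 1 library. No alternative reversed a pooled, standardised or median ratio. Within single states, Chrm3 in the inflammatory-like state changed from −0.18 to 2.25 when thinned (2 UMIs in each library) and was at 0.45 in a state led by Ly6i and Upp1 at resolution 1.0, and in the Lcn2 state it changed from 1.35 to −1.25 when thinned. All of these intervals hold 0. Over 12 alternatives each, the macrophage log2 ratio ranged from −3.39 to −2.88 for Chrm3, from −3.06 to −2.83 for Clic5, from −2.68 to −1.88 for Upp1 and from −2.74 to −2.26 for Slc4a11. Those of Upp1 that left its counting interval were −2.54 without likely doublets, −1.88 with a single-cell gate in place of clusters, −2.61 with cells thinned to 1500 UMIs, −2.23 without states over 90% from 1 library, −2.68 without the cycling state and states led by other cell types, and −2.29 without monocyte-like cells, a setting chosen after seeing the data. The gate took in 70 Ctrl and 232 KD cells of granulocyte clusters, where Upp1 is higher. The standardised ratio moved to −2.77 for Chrm3 at resolution 1.0, and to −3.13 for Clic5 and −2.60 for Upp1 with RPCA integration. The median ratio over states with at least 20 UMIs was −4.16 for Chrm3, −2.66 for Clic5, −2.11 for Upp1 and −1.93 for Slc4a11. That of Chrm3 rests on 4 states, from −5.22 to −0.18. These medians moved to −3.16 (resolution 1.0) and −3.45 (thinned) for Chrm3, to −3.27 (RPCA) for Clic5, to −2.78 (RPCA), −2.31 (resolution 1.0) and −2.64 (members kept among variable genes) for Upp1, and to −2.73 (RPCA) for Slc4a11. The cause of these shifts was not tested. The shares of macrophages with a UMI in Ctrl and KD, unthinned, were 5.80% and 1.501% for Chrm3, 7.19% and 1.23% for Clic5, 42.1% and 14.9% for Upp1, and 6.90% and 1.501% for Slc4a11. Thinned to 3000 UMIs, they were 3.51% and 0.747%, 3.85% and 0.673%, 32.2% and 7.59%, and 3.60% and 0.486%, in the same order of genes. Over the 11 gene lists without the members, 13 genes were past −1 and 9 past 1, against 14 and 12 with a minimum of 50 UMIs and 11 and 10 with TMM scaling. Without the Ctrl cell that held 40 of its UMIs, Chrm3 was at −3.04. With 1 pool of 3 mice per group, no setting measures variation between mice, and states with few KD UMIs have wide intervals.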
